A study of Mus musculus with 6 samples.

Results

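Complement genes were examined in RNA of macrophages from malignant pleural effusions (MPEs) of mice. The set holds 9 genes, taken by symbol from the 23302 genes of the deposited expression table. They encode the 3 chains of C1q (C1qa, C1qb and C1qc), the components C3, factor B (Cfb) and properdin (Cfp), the receptors C3ar1 and C5ar1, and the C1 inhibitor (Serping1). All 9 had a value in every library and passed the filter on low values. Of the 6 libraries, 3 are labelled IL-10-/- and 3 are labelled WT. All mice had a C57BL/6 background, were 6 to 8 weeks old and had received MC38 cells, a mouse colon adenocarcinoma line, in the pleural cavity 10 days before collection, so that both groups bore a tumor and an effusion. The IL-10-/- line came from Jackson Laboratory and the WT mice from Vital River, and supplier and genotype cannot be told apart. The effusion cells were taken through a Ficoll gradient and then over beads carrying an antibody to the product of Adgre1, a surface protein of mouse macrophages. Cells are said to have been cultured for further use, and whether this preceded RNA extraction is not given in the sources read here. Nor is the number of mice behind each library, so that p-values reflect the spread among these libraries and no more.

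Complement is a cascade of plasma proteins that tags microbes, immune complexes and dying cells. In the classical pathway C1q binds its target and activates the proteases C1r and C1s, which Serping1 inhibits. In the alternative pathway C3 fragments join with factor B to form a convertase, which properdin stabilizes. The fragments C3a and C5a are released on the way and act on leukocytes through C3ar1 and C5ar1. Liver makes most plasma C3, whereas macrophages are a main source of C1q, and interferon-gamma induces Cfb in macrophages.

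Levels are given in FPKM, the fragments of a gene scaled by its length and by the fragments mapped in the library, a unit that allows genes of different length to be compared. The sequencing depth behind them is unknown. The deposited values summed to 885300 to 1056000 FPKM per library labelled IL-10-/- and to 918900 to 1125000 FPKM per WT library. The RNA of the targeted gene, Il10, was not lower in libraries labelled IL-10-/-. It stood at 59.2, 62.0 and 42.4 FPKM in libraries labelled IL-10-/-, against 6.43, 33.3 and 7.33 FPKM in the WT libraries (log2 fold change 2.09, adjusted p = 0.14 from limma), and a gene-level value does not show whether a transcript encodes protein. The groups are therefore named by their labels. Macrophage markers (8 of 8 tested) were abundant, with summed levels of 8984 to 11250 FPKM in libraries labelled IL-10-/- and 5674 to 7709 FPKM in the WT libraries. A single marker reached 9252 FPKM and weighs heavily in these sums. In bulk RNA, fewer cells of a type and less RNA per cell cannot be told apart. A pair of libraries stood apart. In the library labelled IL-10-/- replicate 3 and in WT replicate 1, 8 of 10 tested marker genes of the macrophages that reside in serous cavities lay below their values in the other 4 libraries.

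The 3 C1q genes are neighbors on chromosome 4 (build GRCm38, minus strand), from 136880129 to 136886187 (C1qb), from 136889804 to 136893065 (C1qc) and from 136895917 to 136898803 (C1qa). Each has 3 exons in its principal transcript, and 3616 and 2851 bases separate the neighbors. Because the 3 genes are neighbors, the 250 bases before the RefSeq start sites of C1qb (chr4:136886201-136886450) and C1qc (chr4:136892915-136893164) are shown. They are from RefSeq's GRCm38.p6 and read on the minus strand. The C1qc stretch reaches into the annotated span of the gene, since RefSeq places the start further downstream.
C1qb: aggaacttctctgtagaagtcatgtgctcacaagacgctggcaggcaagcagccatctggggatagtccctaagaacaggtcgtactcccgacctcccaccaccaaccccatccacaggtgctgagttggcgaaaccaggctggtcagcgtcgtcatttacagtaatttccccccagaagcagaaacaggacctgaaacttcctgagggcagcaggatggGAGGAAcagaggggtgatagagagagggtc
C1qc: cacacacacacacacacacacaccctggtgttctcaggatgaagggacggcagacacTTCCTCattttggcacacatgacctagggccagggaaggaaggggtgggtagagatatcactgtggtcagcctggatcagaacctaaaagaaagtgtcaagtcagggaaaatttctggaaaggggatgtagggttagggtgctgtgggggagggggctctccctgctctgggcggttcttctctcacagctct
Capitals mark GAGGAA or its reverse complement, the core bound by PU.1, a transcription factor of myeloid cells. Promoter windows of 300 bases (these 250 and the first 50 of the transcript) were matched for 6 of the 9 members, namely C1qb, C1qc, C3, C3ar1, C5ar1 and Cfp. GAGGAA was found on either strand in 3 of the 6 (C1qb, C1qc and Cfp), and in 28.3% of all 32817 windows. In Cfp it lay only within the first 50 bases of the transcript, and in C1qb and C1qc before the start. The GAS motif of STAT factors, TTCNNNGAA, was in none of the 6 and in 8.29% of all windows. Likewise in none of the 6 were a core of interferon-stimulated response elements (TTTC, any 2 bases, TTTC, in 3.43% of all windows) and an NF-kB motif (GGGA, any base, TTTCC, in 0.411%). Both strands were searched for each motif. These matches describe letters in the windows and no binding was measured.

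The comparison was set up to ask how macrophages of the effusion differ between mice labelled IL-10-/- and WT mice. In total 11838 genes reached 1 FPKM in 3 or more libraries, and these were compared by limma on log2(FPKM + 1), with p-values adjusted over all of them by the Benjamini-Hochberg method. Fold changes are given on this scale, IL-10-/- over WT, and understate the change of genes with low FPKM. At an adjusted p under 0.05, 0 of the 9 members were higher and 0 lower in libraries labelled IL-10-/-, where 0.608% and 0.482% of all genes tested were. At an unadjusted p under 0.05, 3 members (Cfb, C3 and C3ar1) were higher and 0 lower, where 5.16% of all genes were higher and 5.61% lower. Cfb and C3ar1 had groups that did not overlap, both higher in libraries labelled IL-10-/-. Of all genes tested, 7.8% had such groups with the libraries labelled IL-10-/- higher and 7.59% with them lower. The log2 fold change was above 0 for 8 members and below 0 for C5ar1, where 5861 of the 11838 genes tested were above 0. The median over the members was 0.16, against −0.0025 over all genes tested. With single libraries left out, the log2 fold changes of C1qa, C1qb, C1qc, C5ar1, Cfp and Serping1 changed sign.

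**Figure D1:**
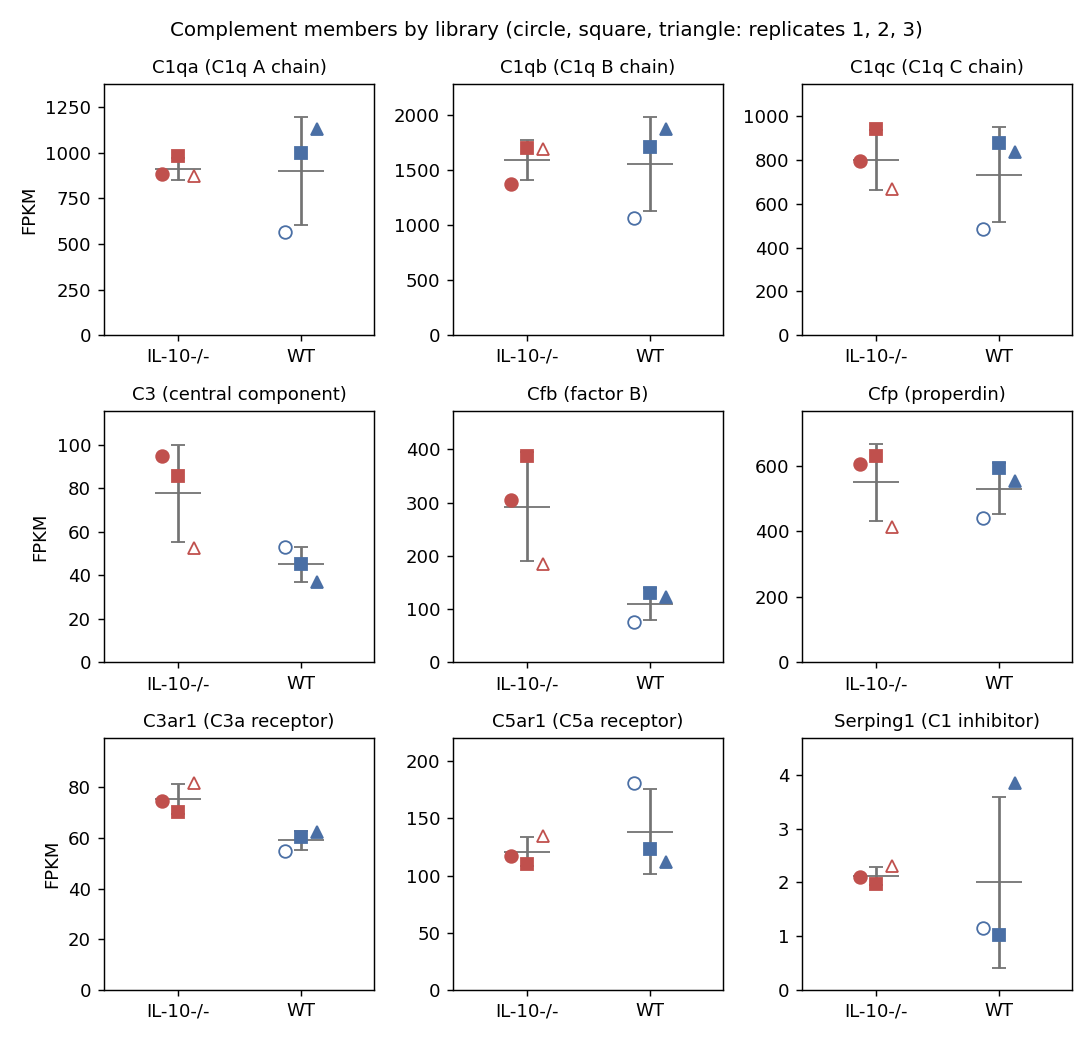
FPKM (linear axis from 0) of the 9 members in each library, with the mean and SD of 3 libraries per group. Open symbols are the library labelled IL-10-/- replicate 3 and WT replicate 1, the pair low in resident macrophage genes. The groups are apart for Cfb (185.0 to 387 against 76.1 to 131 FPKM) and C3ar1 (70.2 to 81.6 against 55.0 to 62.3 FPKM) and overlap for the other members.

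The C1q chains were the most abundant members in each of the 6 libraries, with Cfp next and close to C1qc in WT replicate 1. C1qb, which encodes the B chain, stood at 1377, 1699 and 1695 FPKM in libraries labelled IL-10-/-, against 1069, 1713 and 1872 FPKM in the WT libraries. C1qa, the gene of the A chain, was at 881, 979 and 871 FPKM in libraries labelled IL-10-/-, against 565, 998 and 1129 FPKM in the WT libraries. C1qc, the gene of the C chain, was at 794, 941 and 667 FPKM in libraries labelled IL-10-/-, against 485, 879 and 835 FPKM in the WT libraries. WT replicate 1 was the lowest of all 6 libraries for each chain, and the other WT libraries lay above every library labelled IL-10-/- for C1qa and C1qb and within their range for C1qc. C1qb ranked between 109 and 159 among the 23302 genes of a library, C1qa between 187 and 316 and C1qc between 195 and 366.

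The log2 fold changes of the chains were 0.07 (C1qb, 95% interval −0.49 to 0.63), 0.08 (C1qa, −0.52 to 0.68) and 0.16 (C1qc, −0.43 to 0.76), with adjusted p-values of 0.96, 0.96 and 0.91 from limma. These intervals leave room for changes of either sign. Without WT replicate 1 the log2 fold changes were −0.18, −0.22 and −0.11.

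C1q protein holds equal numbers of its A, B and C chains. At the level of transcripts, C1qb made up 45.1% to 52.4% of the summed C1q FPKM in libraries labelled IL-10-/- and 47.7% to 50.5% in the WT libraries. The share of C1qa was 27.0% to 28.9% in libraries labelled IL-10-/- and 26.7% to 29.4% in the WT libraries, and that of C1qc was 20.6% to 26.02% in libraries labelled IL-10-/- and 21.8% to 24.5% in the WT libraries. The shares of all 3 chains thus overlapped between the groups. The profile of C1qa over the 6 libraries differed from that of C1qb by a root mean square of 0.11 and from that of C1qc by 0.13 on the log2(FPKM + 1) scale, each profile centered on its own mean. C1qb and C1qc were less alike (0.19), and Cfp, on the X chromosome, was closer to C1qc (0.18) than C1qb was. Among all genes tested, C1qb and C1qc ranked 33 and 109 by closeness to C1qa, so that many genes outside the locus had profiles closer to that of C1qa.

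Cfb showed the largest difference of the members. It encodes factor B, the protease zymogen of the alternative pathway, and occupies positions 34856374 to 34862518 on the minus strand of chromosome 17. The gene stood at 305, 387 and 185.0 FPKM in libraries labelled IL-10-/-, against 76.0, 131 and 123 FPKM in the WT libraries. The groups did not overlap, and an exact permutation test, two-sided, gave p = 0.1, below which 3 against 3 cannot go. The means were 293 ± 102 and 110 ± 29.5 FPKM in libraries labelled IL-10-/- and in the WT libraries (SD, n = 3 each). The log2 fold change was 1.38 (standard error 0.30, 95% interval 0.68 to 2.08), which did not pass the test over all genes (adjusted p = 0.097 from limma).

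The call on Cfb depended on the fit. With the library labelled IL-10-/- replicate 3 left out, the adjusted p from limma was 0.044. It was 0.047 after scaling all libraries to 1 common sum of FPKM, and 0.016 with limma's array weights, and 0.018 without the pair of libraries low in resident macrophage genes, an alternative chosen after the data were seen that leaves 2 libraries per group. Over all 15 alternatives it ran from 0.016 to 0.34, and the log2 fold change from 1.14 to 1.68. Gm20547, a model that spans Cfb and its neighbor C2 as a joint transcript, overlaps Cfb on the same strand, and the sources read here do not say how fragments were divided between them. It was listed at under 1e-05 FPKM in each library. C2, which encodes the classical pathway's counterpart of factor B and lies 85 bases from Cfb, was at 1.91, 1.53 and 1.19 FPKM in libraries labelled IL-10-/-, against 0.683, 1.33 and 1.59 FPKM in the WT libraries. The groups of C2 overlapped (log2 fold change 0.22, adjusted p = 0.84 from limma).

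C3 encodes the component on which all activation pathways converge and is found on the minus strand of chromosome 17 from 57203970 to 57228136. It stood at 94.7, 85.6 and 52.6 FPKM in libraries labelled IL-10-/-, against 53.1, 45.0 and 36.9 FPKM in the WT libraries. The library labelled IL-10-/- replicate 3 lay just below WT replicate 1, the pair that stood apart, and both other libraries labelled IL-10-/- exceeded all WT libraries. The log2 fold change was 0.74 (standard error 0.24, 95% interval 0.19 to 1.29, adjusted p = 0.26 from limma). The adjusted p was 0.030 with array weights and 0.028 without the pair of libraries, the log2 fold change without the pair being 1.12, and ran from 0.028 to 0.66 over the 15 alternatives.

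Cfp, the gene of properdin, is on the minus strand of the X chromosome from 20925454 to 20931555, and was more abundant than Cfb and C3 in every library. Its level was 606, 630 and 414 FPKM in libraries labelled IL-10-/-, against 443, 593 and 555 FPKM in the WT libraries. The groups overlapped, and the pair of libraries low in resident macrophage genes held the lowest values. The log2 fold change was 0.04 (95% interval −0.45 to 0.52, adjusted p = 0.97 from limma).

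**Figure D2:**
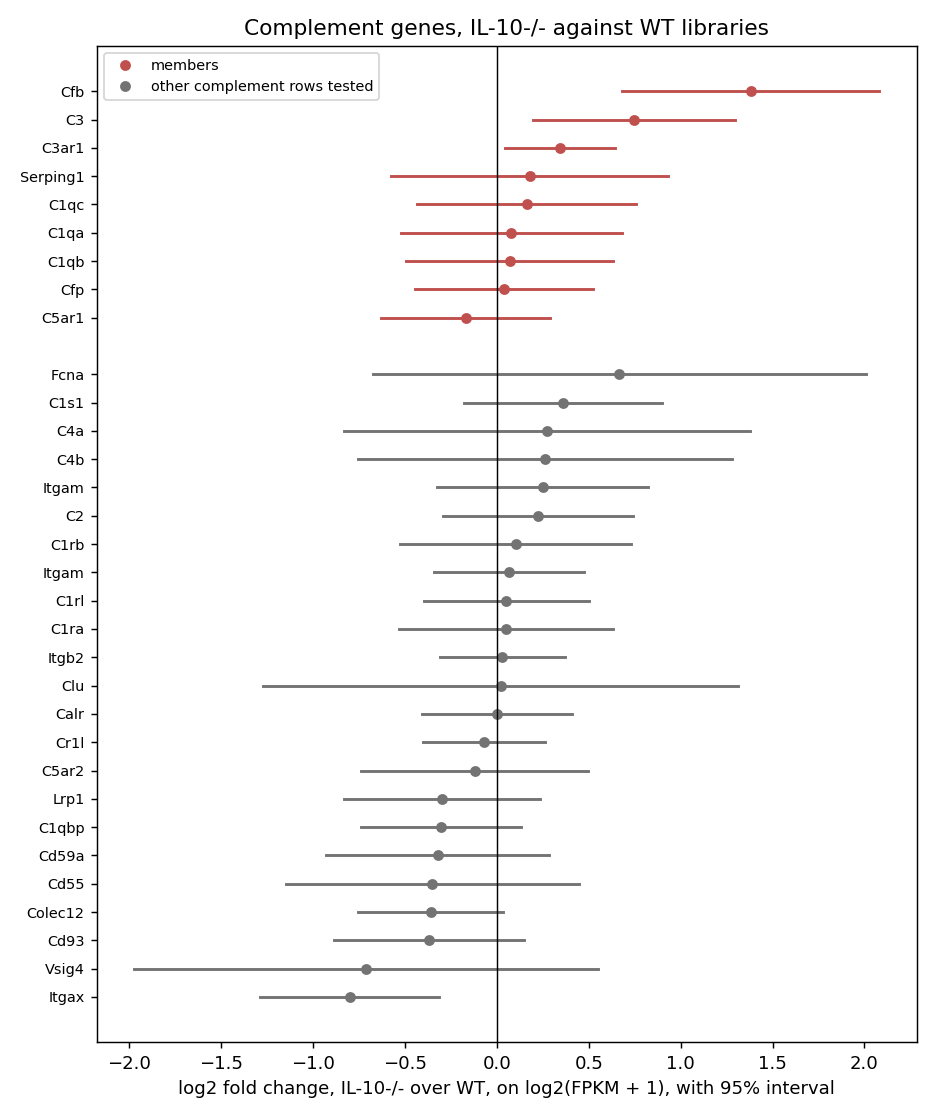
Log2 fold change of IL-10-/- over WT libraries on log2(FPKM + 1), with 95% intervals from limma, for the 9 members and for other complement rows tested, among them 2 of Itgam, the lower of which in the plot is the abundant one. The intervals of Cfb, C3 and C3ar1 lie above 0 and that of Itgax lies below 0, while none of these genes had an adjusted p under 0.05.

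Both receptors of the anaphylatoxins were expressed, C3ar1 with groups that lay apart and C5ar1 with groups that overlapped. C3ar1, the receptor of C3a, lies on the minus strand of chromosome 6 from 122847138 to 122856161 and stood at 74.4, 70.2 and 81.6 FPKM in libraries labelled IL-10-/-, against 55.0, 60.3 and 62.3 FPKM in the WT libraries. The groups did not overlap, and the difference was small (log2 fold change 0.34, standard error 0.13, 95% interval 0.04 to 0.64, adjusted p = 0.37 from limma). It was above 0 in all 15 alternatives, from 0.24 to 0.43, and its adjusted p stayed above 0.05 in each of them. C5ar1, the receptor of C5a, lies on the minus strand of chromosome 7 from 16246743 to 16259540 and was at 117, 110.4 and 135 FPKM in libraries labelled IL-10-/-, against 181, 123 and 112 FPKM in the WT libraries. WT replicate 1 was the highest and the groups overlapped. The log2 fold change was −0.17 (95% interval −0.63 to 0.29, adjusted p = 0.86 from limma), and 0.04 without WT replicate 1. Neutrophils also express C5ar1. Of 12 neutrophil markers, 5 fell and 0 rose, and their summed level was 448 to 795 FPKM in libraries labelled IL-10-/-, against 1772 to 2391 FPKM in the WT libraries. The log2 fold changes were below 0 for 9 of these markers and above 0 for 3. A single marker reached 1750 FPKM and can weigh heavily in these sums. The part of neutrophil RNA in the level of C5ar1 was not tested.

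Serping1 was the least abundant member. It lies on the minus strand of chromosome 2 from 84765387 to 84775444 and stood at 2.10, 1.98 and 2.30 FPKM in libraries labelled IL-10-/-, against 1.15, 1.01 and 3.85 FPKM in the WT libraries. WT replicate 3 was the highest and the other WT libraries were the lowest, so the WT libraries enclosed those labelled IL-10-/-. The log2 fold change was 0.18 (95% interval −0.57 to 0.93, adjusted p = 0.92 from limma), with 0.59 without WT replicate 3. Serping1 ranked between 9054 and 11718 among the 23302 genes of a library.

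By mean FPKM in libraries labelled IL-10-/- the order of the members was C1qb (1590 ± 185), C1qa (910 ± 59.7), C1qc (801 ± 137), Cfp (550 ± 118), Cfb (293 ± 102), C5ar1 (121 ± 12.7), C3 (77.6 ± 22.1), C3ar1 (75.4 ± 5.76) and Serping1 (2.12 ± 0.162). In the WT libraries it was C1qb (1551 ± 425), C1qa (897 ± 295), C1qc (733 ± 216), Cfp (530 ± 78.2), C5ar1 (139 ± 36.9), Cfb (110 ± 29.5), C3ar1 (59.2 ± 3.74), C3 (45.0 ± 8.06) and Serping1 last, each ± SD with n = 3. The SDs of several neighbors in these orders overlap, but within a library C1qb exceeded C1qa, C1qa exceeded C1qc, C1qc exceeded Cfp and Cfp exceeded Cfb in all 6 libraries. C3 and C3ar1 had no fixed order, C3 being the higher in replicates 1 and 2 of the libraries labelled IL-10-/- and C3ar1 in the other 4 libraries. Cfb stood above C5ar1 in each library labelled IL-10-/-, whereas in the WT libraries it stood above C5ar1 in replicates 2 and 3 and below it in replicate 1.

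The low pair of libraries also marked several members. The library labelled IL-10-/- replicate 3 and WT replicate 1 were each the lowest of their group for Cfb, Cfp, C1qa and C1qc, whereas for C3 they were the lowest of the one and the highest of the other. The summed level of the resident macrophage list was 1131, 1770 and 315 FPKM in libraries labelled IL-10-/-, against 405, 1446 and 1022 FPKM in the WT libraries. Of its 10 tested genes, 0 rose and 0 fell between the groups, the summed ranges overlapped, and no marker was at 0 in all libraries. Several other lists were higher on balance in libraries labelled IL-10-/-, as Cfb was. Among them was the macrophage list, with summed levels that did not overlap and 0 of 8 genes past the adjusted test. Its log2 fold changes were split, above 0 for 5 markers and below 0 for 3, and its sum was weighted to the marker that reached 9252 FPKM. Of 16 interferon-gamma response genes, 4 rose and 0 fell, with a median log2 fold change of 0.79 and summed levels of 2676 to 2785 FPKM in libraries labelled IL-10-/-, against 1459 to 1662 FPKM in the WT libraries. Of 8 markers of classical monocytes, 1 rose and 0 fell, with summed levels of 10240 to 14900 FPKM in libraries labelled IL-10-/-, against 6319 to 8262 FPKM in the WT libraries. Of 8 T cell markers, 0 rose and 0 fell, 7 had log2 fold changes above 0 (median 0.71), and the summed levels of 87.6 to 180.2 FPKM in libraries labelled IL-10-/- and 60.9 to 95.8 FPKM in the WT libraries overlapped. The part of these cells or responses in the levels of Cfb and C3 was not tested. Markers of mesothelial cells and of fibroblasts, which can express C3 and Serping1, were summed separately. Each list alone summed to less than C3 but to more than Serping1 in each library. The fibroblast list came close to C3 in WT replicate 3 (35.2 against 36.9 FPKM). A sum of markers does not give the C3 or Serping1 RNA of those cells. Their lists summed to 6.77 to 12.7 and 15.8 to 35.9 FPKM in libraries labelled IL-10-/-, against 6.92 to 12.8 and 17.9 to 35.2 FPKM in the WT libraries. Lrrn4, Upk3b and Wt1 for mesothelium and Lum, Pdgfra and Pdgfrb for fibroblasts stayed under 1 FPKM in each library. These were 3 of 8 markers in each list. The highest value of a single marker was 4.85 FPKM in the mesothelial list and 30.4 FPKM in the fibroblast list. Only Cdh1, Krt8 and Krt18 of the mesothelial list passed the filter, and a list of epithelial tumor markers shares these genes. They cannot tell mesothelial from tumor RNA. The tumor list summed to 5.15 to 12.2 FPKM in libraries labelled IL-10-/-, against 6.11 to 9.49 FPKM in the WT libraries. Its other markers stayed under 1 FPKM in each library. The part of mesothelial cells, fibroblasts or tumor cells in the levels of Serping1 and C3 was not tested.

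**Figure D3:**
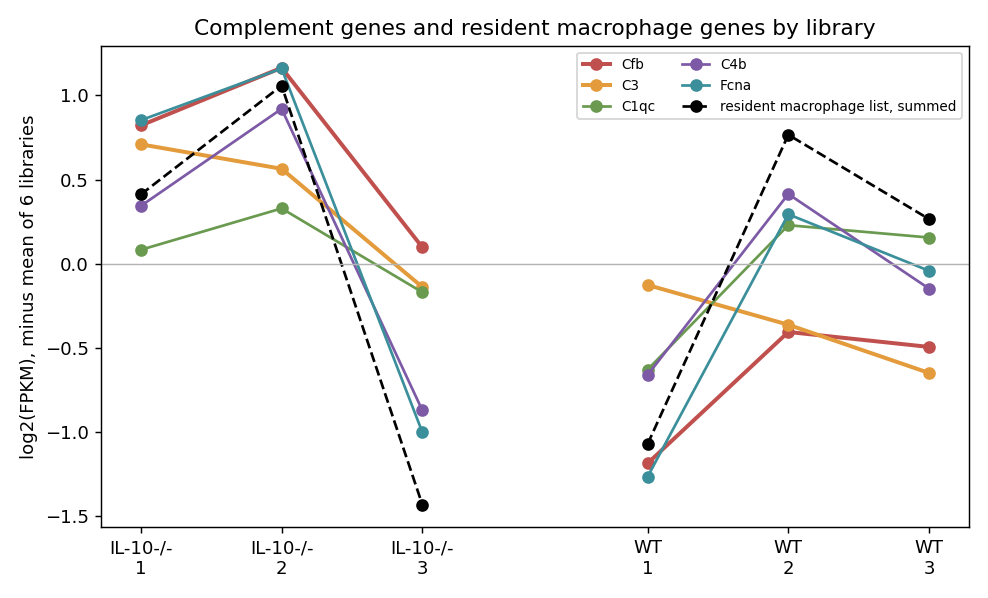
Log2(FPKM) minus its mean over the 6 libraries, for Cfb, C3, C1qc, C4b, Fcna and the summed list of resident macrophage genes. The lines of C1qc, C4b, Fcna and the list are low in the library labelled IL-10-/- replicate 3 and in WT replicate 1, and Cfb is higher in each library labelled IL-10-/- than in each WT library.

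For members whose level spanned at least 1 on the log2(FPKM + 1) scale, the genes with the closest profiles over the 6 libraries were taken, by the root mean square difference of the centered values. For Cfb these were Serpina3f, of the Serpina3 protease inhibitor cluster (0.17), and Ifit2, an interferon-induced antiviral gene (0.19). Ifit2 was at 34.1, 37.0 and 21.4 FPKM in libraries labelled IL-10-/-, against 5.64, 10.3 and 12.8 FPKM in the WT libraries. For C3 they were Nhsl2 and Ccnc, the gene of cyclin C (0.11 and 0.12), and for Serping1 they were Gm11223 and Zfp518b (0.15 and 0.16), which were likewise low.

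Of 50 other complement genes, 44 had a row in the table, some of them more than 1, which gave 46 rows of which 24 passed the filter. At an adjusted p under 0.05 from limma, 0 of the 24 were higher and 0 lower. At an unadjusted p under 0.05, 0 were higher and 1 (Itgax) was lower, where 5.16% of all genes tested were higher and 5.61% lower. Over the 24 the log2 fold changes had a median of 0.02. The groups did not overlap for 2 of the 24, Itgax and Colec12, a collectin, both lower in libraries labelled IL-10-/-. Of all genes tested, 7.59% had such groups in that direction. Colec12 was near the filter on low values, at 0.722 to 0.868 FPKM in libraries labelled IL-10-/- and 1.20 to 1.42 FPKM in the WT libraries (adjusted p = 0.52 from limma). Itgax, the alpha chain of the complement receptor CR4 and a gene of dendritic cells, was at 6.76, 6.42 and 8.78 FPKM in libraries labelled IL-10-/-, against 15.1, 9.79 and 16.1 FPKM in the WT libraries (log2 fold change −0.80, adjusted p = 0.16 from limma). Of 8 dendritic cell markers, among them Itgax, 0 rose and 0 fell, and 8 had log2 fold changes below 0.

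Beyond C1q, recognition was represented by Fcna, which encodes the lectin pathway protein ficolin A. It stood at 139, 172 and 38.5 FPKM in libraries labelled IL-10-/-, against 32.1, 94.4 and 74.8 FPKM in the WT libraries, low in the pair that stood apart (log2 fold change 0.67, adjusted p = 0.80 from limma). C4b, the gene of component C4, followed the same libraries, with 140, 208 and 60.2 FPKM in libraries labelled IL-10-/- and 69.7, 147 and 99.4 FPKM in the WT libraries (log2 fold change 0.26, adjusted p = 0.91 from limma). C4a is a near-identical copy of C4b, and how their reads were divided is uncertain. The proteases that C1q activates were far less abundant than C1q, with C1ra at 14.8 to 29.6 FPKM in libraries labelled IL-10-/- and at 18.6 to 25.2 FPKM in the WT libraries, and C1s1 at 1.36 to 2.63 FPKM in libraries labelled IL-10-/- and at 0.788 to 1.37 FPKM in the WT libraries. The terminal pathway, which forms the membrane attack complex, was nearly silent, and no value of its 6 measured genes exceeded 0.585 FPKM. Of these genes 0 passed the filter. C2, C4b, C1ra, C1s1 and Colec12 were chosen after their values were seen.

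Several regulators and receptors of complement were abundant, without a difference that passed the test. Cr1l, which encodes the rodent membrane regulator Crry, was at 67.9 to 90.2 FPKM in libraries labelled IL-10-/- and at 81.8 to 83.2 FPKM in the WT libraries. Cr1l was chosen after its values were seen. Itgam and Itgb2, the chains of the complement receptor CR3, stood at 621 to 776 and 486 to 575 FPKM in libraries labelled IL-10-/-, against 595 to 791 and 497 to 555 FPKM in the WT libraries. Their log2 fold changes were 0.07 and 0.03 (adjusted p = 0.95 and 0.97 from limma). These values are of the abundant entry of Itgam. Another, overlapping entry was at 12.9 to 25.5 FPKM in libraries labelled IL-10-/- and 11.7 to 16.3 FPKM in the WT libraries (log2 fold change 0.25, adjusted p = 0.83 from limma). How fragments were divided between these entries is not given in the sources read here. Vsig4, the C3b receptor of tissue macrophages, stands in the list of resident macrophage genes too and was at 1.91, 9.10 and 1.73 FPKM in libraries labelled IL-10-/-, against 2.88, 9.60 and 7.54 FPKM in the WT libraries (log2 fold change −0.71, adjusted p = 0.76 from limma). Cd93, first described as a C1q receptor, differed by −0.37 on the log2 scale (adjusted p = 0.66 from limma). Calr and Lrp1, whose proteins take part in the uptake of C1q-coated cells, had log2 fold changes of 0.0021 and −0.30 (adjusted p = 0.999 and 0.75 from limma).

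**Figure D4:**
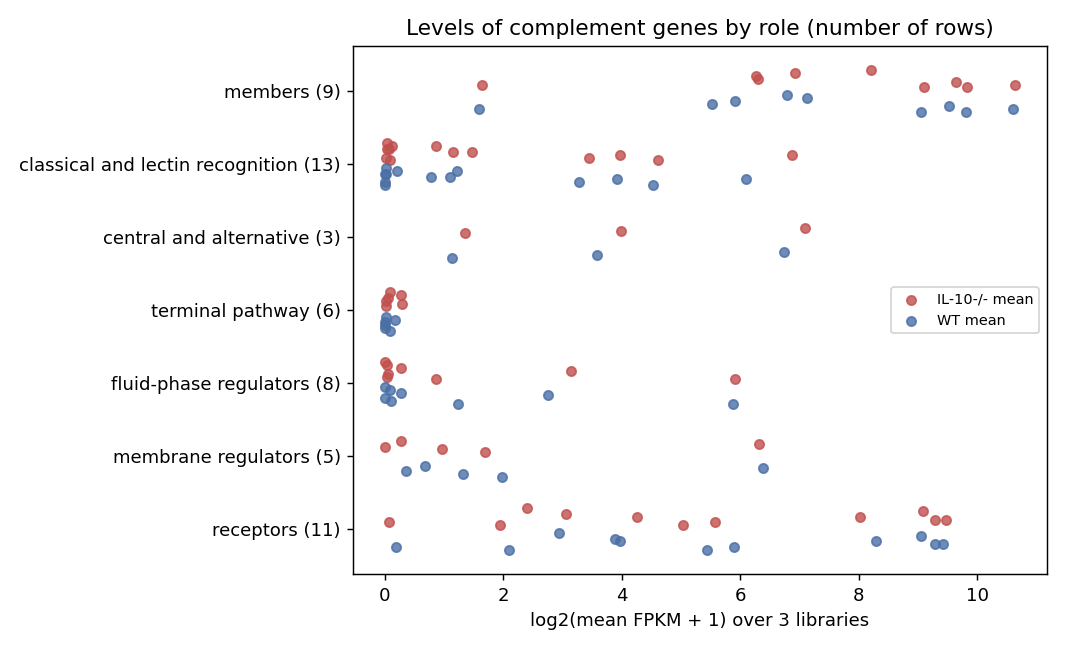
Log2(mean FPKM + 1) over 3 libraries per group for the 9 members and the 46 rows of other complement genes, arranged by role. Each point is the mean of a group for a row. The C1q genes lie at the upper end and the 6 terminal pathway genes near 0 in both groups.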

How the data were processed

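The authors deposited 1 table with an FPKM value per gene and library, made from poly(A) RNA (NEBNext Ultra, paired-end HiSeq reads). The submitters' notes name GRCm38, while the aligner, counter, annotation and strand setting are not given in the sources read here. Some FPKM are far below any single fragment, so the deposited values are estimates from which whole reads, and hence depth, cannot be had. The authors' fold changes, p-values, q-values and marks in the table were not used.

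Groups follow the genotype in each sample's title. Levels were compared by limma 3.58.1 under R 4.3.3 (group only, intensity trend) on log2(FPKM + 1), after a filter of at least 1 FPKM in at least 3 libraries, two-sided, with Benjamini-Hochberg adjustment over all genes. The code was tested on simulated data. Single values were compared with an exact permutation test in SciPy 1.17.1. Positions match GENCODE M21, which gave strand and exons.

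Named were all members and, among 50 other complement genes, those with an adjusted p under 0.05, the 4 largest changes and the 4 most abundant, and for members spanning at least 1 on the log2 scale, the 2 closest profiles. The members, lists and marker lists were chosen with earlier results of these data known. Alternatives were a pseudocount of 0.1, no filter, a stricter filter of 5 FPKM, no variance trend, quantile normalization, scaling to 1 common sum, array weights, a replicate block and each library left out. Leaving out a pair of libraries was added after the data were seen. The values of 1 other complement gene are not reported here.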

Additional observations from a re-analysis of the deposited data

How the results depend on the processing

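Among the 9 members, the count called higher was 1 with all libraries scaled to 1 common sum of FPKM, 2 with array weights, 2 without the pair of libraries low in resident macrophage genes and 0 to 1 with each library left out in turn, and 0 in the other alternatives. The count called lower was 0 in every alternative, and so were the counts of the other complement genes in both directions. Of all genes tested, 22 were called higher and 10 lower without a filter on low values, 248 and 234 with array weights, 152 and 129 without the pair of libraries, and 26 to 78 and 14 to 62 with each library left out. Same-numbered libraries of the groups were not paired by their labels. The correlations of their deviations from the group means, across genes, were 0.086, 0.20 and 0.090, and each library was closest to that of its own number. With the replicate block 36 genes were called higher and 25 lower and no member was called.

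Log2 fold changes near 0 changed sign. With array weights they were −0.0745 for C1qa and −0.0683 for C1qb, and without the pair of libraries −0.19 for C1qa, −0.23 for C1qb and −0.0399 for Serping1. With each library left out they ran from −0.22 to 0.28 for C1qa, from −0.18 to 0.23 for C1qb, from −0.11 to 0.32 for C1qc, from −0.31 to 0.0365 for C5ar1, from −0.0853 to 0.23 for Cfp and from −0.0491 to 0.59 for Serping1. The causes were not tested. C3, C3ar1 and Cfb stayed above 0 in every alternative. Serping1 has no value under the filter at 5 FPKM. Depth is unknown, and counting error is likely to weigh most on low values, among them those of Serping1, C2, C1s1 and Colec12.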

Other observations

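The ratio of C5ar1 to C3ar1, looked at after the values were seen, was 1.57, 1.57 and 1.66 in libraries labelled IL-10-/-, against 3.29, 2.04 and 1.80 in the WT libraries. The groups did not overlap (exact two-sided permutation test of the log2 ratio, p = 0.1, the smallest that 3 against 3 allow), and WT replicate 1 held the highest value. The ratio of Cfb to C3 was 3.23, 4.53 and 3.52 in libraries labelled IL-10-/-, against 1.43, 2.90 and 3.32 in the WT libraries, and the groups overlapped (exact permutation test, p = 0.2). Adjusted over the 2 ratios computed, both exact permutation p-values were 0.2.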
